A study of Homo sapiens with 8 samples.

Results

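The CCT chaperonin, also called TRiC, was described through its 8 subunit genes, TCP1, CCT2, CCT3, CCT4, CCT5, CCT6A, CCT7 and CCT8, in SQ20B cells, a human head and neck squamous cell carcinoma line. The genes were chosen by name, as the complete set of subunits of the complex in somatic cells, and all RefSeq transcripts assigned to them were taken. They gave 21 of the 24812 listed transcripts, and 8 of the 14528 named genes in the table. RNA had been collected from 4 replicates in normoxia and from 4 replicates of cells that spent 16 h at 0.5% oxygen, with the same medium and cell line on both sides. Both conditions come from 1 cell line at 1 oxygen level and 1 time point.

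CCT is a barrel of stacked, back-to-back rings in the cytosol. Each ring is built from 1 copy of each of 8 related but distinct subunits, which bind a newly made protein in the cavity, close a built-in lid on ATP hydrolysis and release the folded product. Its best known clients are actin and tubulin, together with WD40-repeat proteins such as the mitotic activator CDC20 and G protein beta subunits. Prefoldin hands unfolded actin and tubulin to the ring, phosducin-like proteins act on it as cofactors, and the tubulin cofactors TBCA to TBCE take over tubulin after its release.

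The deposited table holds 1 FPKM value per condition, which is the authors' value over its 4 replicates. FPKM is the number of fragments assigned to a transcript, scaled by its length and by the mapped fragments of the library, so levels of different genes can be set side by side. Neither individual replicates nor counts of reads were analysed here, so no spread or interval accompanies the values below and no comparison was held against replicate error. The test columns that the authors deposited beside the FPKM values were not used. Changes are log2((hypoxia FPKM + 0.1)/(normoxia FPKM + 0.1)) unless stated, where the added 0.1 has almost no effect on the subunit genes but understates changes at low levels. A gene was counted as lower or higher only when it was past 1.5-fold, and genes whose FPKM averaged 0.5 or more across normoxia and hypoxia, 12106 in number, formed the background. FPKM is a relative measure, so less CCT mRNA per cell and a smaller share of the mRNA pool cannot be told apart.

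The cell line label was checked first. Of the squamous epithelial markers, KRT5 stood at 398 FPKM in normoxia and at 442 in hypoxia, TP63 at 42.8 and 44.6, CDH1 at 61.1 and 82.6, and KRT17 at 50.5 and 56.2. KRT6A was lower, at 5.10 and 3.26 FPKM, and KRT14 was not analysed here. Of the markers of other cell types, the fibroblast gene LUM (0.126 and 0.103 FPKM) and the monocyte gene CD14 (0.119 and 0.132) were near 0, and the endothelial gene CDH5 was at 4.78 and 2.83 FPKM. All 5 analysed hypoxia control genes were past 1.5-fold higher, with a median log2 change of 1.73. The angiogenic factor VEGFA went from 21.3 to 43.2 FPKM (1.02), the vasoactive peptide gene ADM from 16.8 to 49.2 (1.55) and the pyruvate dehydrogenase kinase PDK1 from 6.20 to 20.8 (1.73). The carbonic anhydrase CA9 went from 0.694 to 21.6 FPKM (4.77) and NDRG1 from 6.19 to 300.0 (5.58). LDHA, the remaining control, was not analysed here.

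All 8 CCT subunit genes had a lower FPKM in hypoxia than in normoxia, as did 56.4% of all genes. With all listed transcripts of a gene summed, 7 of the 8 were past 1.5-fold lower, against 11.2% of all genes over the FPKM limit. The exception was CCT8, at 1.38-fold lower. The log2 changes ran from -0.91 for CCT5 to -0.47 for CCT8 with a median of -0.79, where the median of all genes was -0.07. No subunit gene was higher in hypoxia, while 9.95% of all genes were past 1.5-fold higher.

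**Figure D1:**
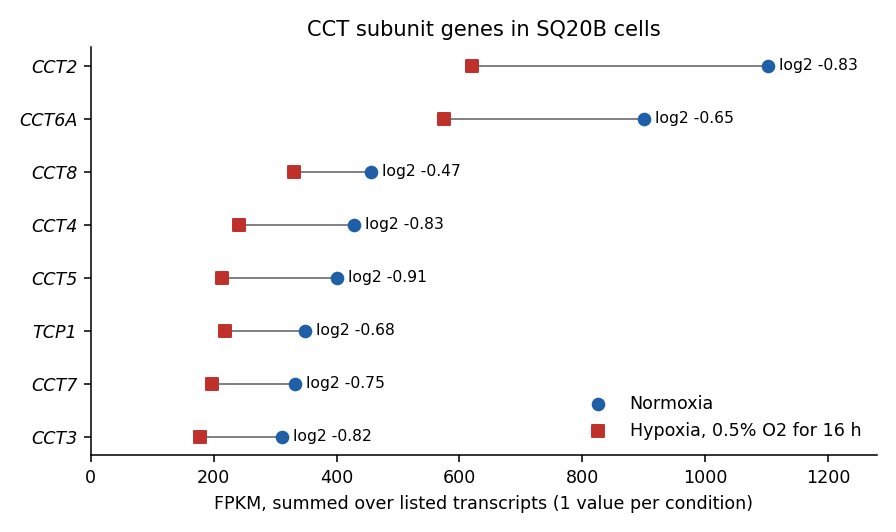
FPKM of each CCT subunit gene (x axis, linear, summed over listed transcripts) in normoxia (blue circles) and in hypoxia (red squares), ordered by the level in normoxia, with the log2 change beside each pair. Every red square lies to the left of its blue circle, from 1103 to 621 FPKM for CCT2 at the top and from 311 to 177 FPKM for CCT3 at the bottom; each point is 1 value per condition with no error.

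CCT5, the epsilon subunit, in which a missense change causes a hereditary sensory neuropathy, had the largest change. Its level was 401 FPKM in normoxia against 213 in hypoxia, which is 1.88-fold lower. CCT5 lies on the plus strand of chromosome 5 (10250392 to 10266501 in GRCh37, the assembly that hg19 also names), and its reference transcript has 11 exons with 1623 coding bases. CCT5 was the only subunit gene with a single listed transcript.

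CCT2, CCT4 and CCT3 followed closely, with nearly equal changes. CCT2, the beta subunit, was the most abundant of the set with 1103 FPKM in normoxia against 621 in hypoxia, a log2 change of -0.83. CCT4, the delta subunit, which like CCT5 can form rings of its own kind when made alone, went from 429 to 242 FPKM, also a log2 change of -0.83. CCT3, the gamma subunit, was the least abundant at 311 and 177 FPKM, a log2 change of -0.82. These genes sit on different chromosomes, CCT2 on the plus strand of chromosome 12 (69979239 to 69995350), CCT4 on the minus strand of chromosome 2 (62095220 to 62115791) and CCT3 on the minus strand of chromosome 1 (156278759 to 156308083). Their reference transcripts have 16, 14 and 14 exons.

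CCT7, TCP1 and CCT6A formed the next group. CCT7, the eta subunit on the plus strand of chromosome 2 (73461436 to 73480133), went from 333 to 197 FPKM, a log2 change of -0.75. TCP1, the alpha subunit and the founding member of the family, lies on the minus strand of chromosome 6 (160199530 to 160210634) and went from 349 to 218 FPKM, a log2 change of -0.68. CCT6A, the zeta subunit that somatic cells use in place of its testis paralog CCT6B, lies on the plus strand of chromosome 7 (56119458 to 56131682) and went from 901 to 575 FPKM, a log2 change of -0.65. All were past 1.5-fold lower, though CCT6A by the narrowest margin, at 1.57-fold.

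CCT8, the theta subunit on the minus strand of chromosome 21 (30428647 to 30445969), had the smallest change. Its 456 FPKM in normoxia compared with 330 in hypoxia, which was 27.6% lower (log2 change -0.47), where the other subunits were between 36.2% and 46.7% lower. The step from CCT6A to CCT8 in the order of changes was 0.18 on the log2 scale, and no other step between neighbours in that order was above 0.08. After quantile normalization that step was 0.10, the same as the step from TCP1 to CCT6A, with TCP1, CCT6A and CCT8 at -0.38, -0.27 and -0.17. Whether either step is larger than replicate error was not tested.

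Against the whole table, the subunit genes lay toward the lower end of the changes without reaching its extreme. As deposited, only 3.49% of all genes had a lower log2 change than CCT5, and 17.6% had a lower one than CCT8. After quantile normalization these shares were 9.31% and 35.1%, so the place of CCT8 toward the lower end depended on scaling. The SD of the 8 log2 changes was 0.14, beside 0.55 over all genes and 0.12 in both prefoldin and the 20S proteasome. Abundant genes as a class were lower in hypoxia in this table. Of the 864 genes that averaged 100 FPKM or more, 18.2% were past 1.5-fold lower, 82.1% were below 0, and their median log2 change was -0.29. Every CCT subunit gene belongs to this class, and against it 7 of 8 past 1.5-fold lower was still a larger share. That limit was chosen after the values were seen.

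**Figure D2:**
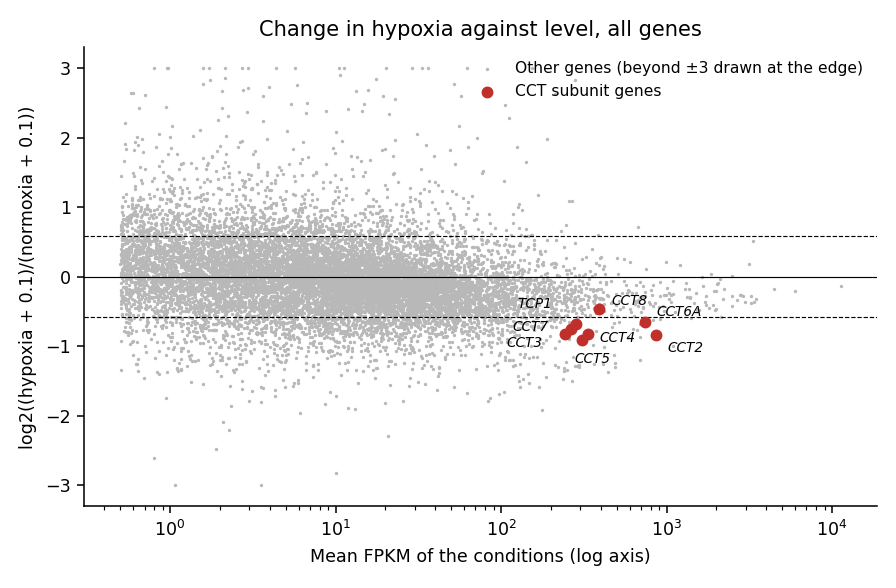
Log2 change in hypoxia (y axis) against mean FPKM of the conditions (x axis, log scale) for all genes averaging 0.5 FPKM or more, with the 8 CCT subunit genes in red and dashed lines at 1.5-fold in either direction. The subunit genes cluster between 244 and 862 FPKM and between -0.91 and -0.47, below most other abundant genes, with CCT8 alone above the lower dashed line.

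The 2 FPKM columns did not have equal sums (536005 in normoxia and 458431 in hypoxia over all listed transcripts), so the count of 7 depended on scaling. Setting the columns to equal sums raised every log2 change by about 0.23 and moved the median of all genes from -0.07 to 0.15. The subunit changes then ran from -0.68 to -0.24, and 4 of the 8 (CCT2, CCT3, CCT4 and CCT5) were past 1.5-fold lower, against 4.94% of all genes. With the median of all genes set to 0, 6 of the 8 were past 1.5-fold lower, against 8.76% of all genes. CCT6A, at -0.58, and CCT8 fell short. Under quantile normalization the changes ran from -0.60 to -0.17 and only CCT5 was past 1.5-fold, against 9.72% of all genes. All 8 remained below 0 under each scaling. As deposited, 56.4% of all genes and 82.1% of those averaging 100 FPKM or more were below 0. Under the other scalings these shares were not computed. Relative to the median of all genes, the median of the subunits stood at -0.72 as deposited, at -0.71 with equal sums and at -0.43 after quantile normalization. Among all genes, 53.1% of those past 1.5-fold were lower as deposited, 21.3% with equal sums, 41.4% with the median of all genes set to 0 and 49.3% after quantile normalization.

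**Figure D3:**
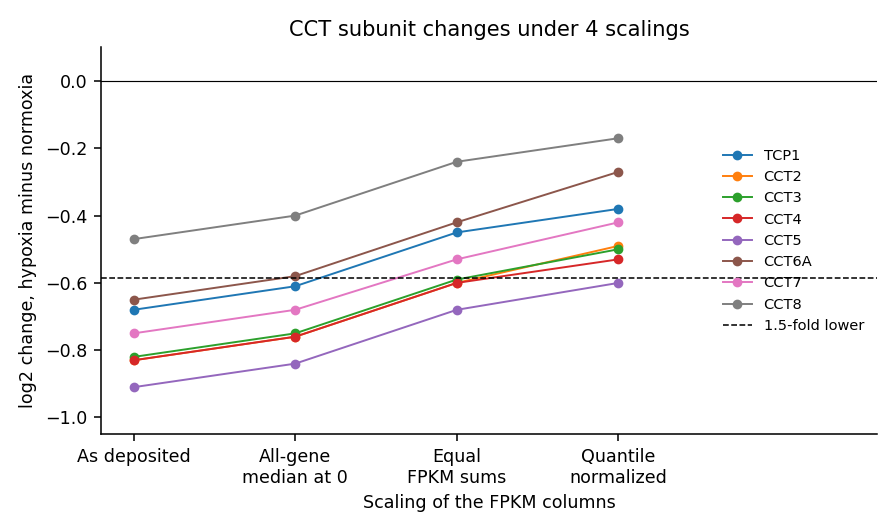
Log2 change of each CCT subunit gene (y axis) under 4 scalings of the FPKM columns (x axis), with lines joining the values of a gene and a dashed line at 1.5-fold lower. The order of the genes hardly moves, with CCT5 lowest and CCT8 highest throughout, while the whole set shifts toward 0 and all but CCT5 end above the dashed line after quantile normalization.

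The ring holds its subunits in equal numbers, but their mRNAs were not at equal levels. CCT2 and CCT6A were the highest in both conditions, and the remaining 6 genes lay between 311 and 456 FPKM in normoxia and between 177 and 330 FPKM in hypoxia. The highest subunit exceeded the lowest 3.55-fold in normoxia and 3.52-fold in hypoxia. The order of levels was CCT2, CCT6A, CCT8, CCT4, CCT5, TCP1, CCT7 and CCT3 in normoxia. In hypoxia it differed in 1 place, where TCP1 (218 FPKM) stood above CCT5 (213 FPKM), and whether these neighbours differ beyond replicate error was not tested.

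The summed FPKM of the 8 genes went from 4282 in normoxia to 2573 in hypoxia, 39.9% lower. As a share of all FPKM in the table, the set went from 0.799% to 0.561%. Within the set, CCT2 carried 25.8% of the sum in normoxia and 24.1% in hypoxia, and CCT6A carried 21.0% and 22.4%. The share of CCT8 went from 10.6% to 12.8%, the largest shift of any subunit at 2.19 percentage points, and that of CCT5 from 9.36% to 8.29%.

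**Figure D4:**
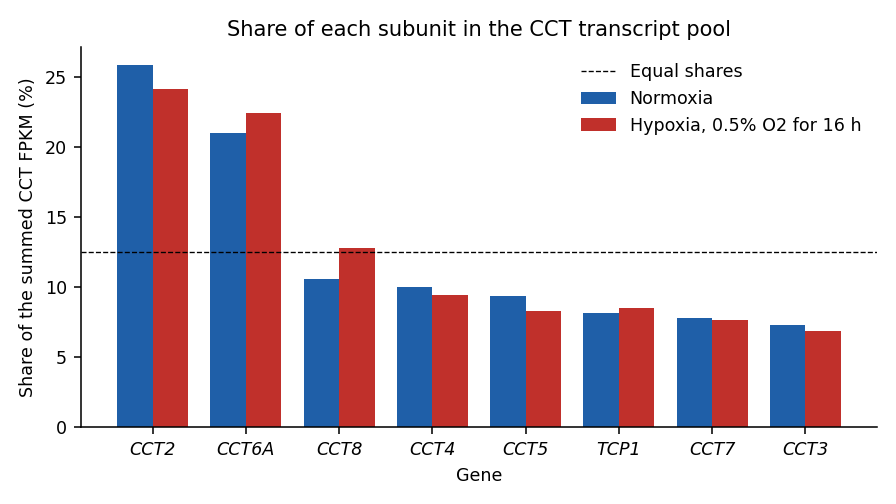
Share of the summed CCT FPKM (y axis, percent) carried by each subunit gene in normoxia (blue bars) and hypoxia (red bars), with a dashed line at equal shares. CCT2 and CCT6A together hold the tallest bars in both conditions, and CCT8 moves from below the line in normoxia (10.6%) to just above it in hypoxia (12.8%).

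At the level of single transcripts, each gene was carried by 1 form. The most abundant transcript held at least 97.8% of a gene's FPKM in normoxia and at least 97.6% in hypoxia, so the gene-level changes are those of NM_030752 (TCP1), NM_006431 (CCT2), NM_005998 (CCT3), NM_006430 (CCT4), NM_012073 (CCT5), NM_001762 (CCT6A), NM_006429 (CCT7) and NM_006585 (CCT8). Of the 21 transcripts, 18 had the NM prefix of coding and 3 the NR prefix of noncoding RefSeq entries. The limit of 0.5 FPKM was reached by 16 of them, and all 16 were lower in hypoxia, 13 past 1.5-fold, where 14.3% of all 18190 transcripts over the limit were past it and 57.4% were below 0. The 13 fell to 9 with 1 FPKM added (8.99% of all transcripts), to 8 with equal sums (6.99%), to 11 with the median of all transcripts set to 0 (10.8%) and to 7 after quantile normalization (12.1%), while all 16 stayed below 0 in each. These settings were chosen after the values were seen, and the share of all transcripts below 0 was not computed for them.

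The minor forms were low. The largest was NM_001009186 of CCT6A, from 14.4 to 8 FPKM, a log2 change of -0.84 against -0.65 for the main form. NR_029403, a noncoding CCT7 transcript, was at 5.16 and 3.52 FPKM (log2 change -0.54), and NM_001282908 of CCT8 was at 2.87 and 1.59 FPKM (-0.81). The main CCT8 transcript was at 452 and 328 FPKM (-0.46). With 1 FPKM added, NM_001282908 was at -0.58, short of 1.5-fold. For CCT3, the noncoding NR_036565 went from 1.77 to 0.724 FPKM (-1.19) and the coding NM_001008800 from 1.33 to 0.944 FPKM (-0.45). The only transcript above 0 was NM_001198842 of CCT2, at 0.136 and 0.139 FPKM, under the limit. Transcripts of the same gene share most of their exons, so these low values depend on how Cufflinks divides shared fragments, and no test between forms was run.

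Near-identical gene copies could take or give reads. Of the CCT pseudogenes that RefSeq names, those listed were CCT6P1, at 4.74 and 3.92 FPKM, and CCT6P3, at 1.60 and 1.81 FPKM. Both were far below CCT6A, at 901 and 575 FPKM. Many other subunits have unlisted processed pseudogenes, and their part in the values was not tested.

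Several subunit genes share their surroundings with other genes, which allowed a look at whether the decrease extended across a locus. TCP1 and MRPL18, a mitochondrial ribosomal protein gene, start 865 bp apart on opposite strands, and MRPL18 went from 130 to 83.7 FPKM, a log2 change of -0.63 beside -0.68 for TCP1. At its other end TCP1 overlaps ACAT2, a cytosolic acetyl-CoA acetyltransferase gene of sterol synthesis, by 615 bp in the annotation. ACAT2 moved the other way, from 132 to 184 FPKM, a log2 change of 0.47 that did not reach 1.5-fold as deposited.

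The other start-site neighbours changed less than MRPL18 as deposited. CCT6A starts 321 bp from PSPH, the phosphatase of the last step of serine synthesis, which was at 59.8 and 58.4 FPKM (log2 change -0.03). CCT5 starts 392 bp from ATPSCKMT, a mitochondrial lysine methyltransferase gene, which went from 10.1 to 6.97 FPKM (-0.53). After quantile normalization ATPSCKMT was at -0.51, lower than MRPL18 at -0.39. CCT3 starts 234 bp from TSACC, which was low at 1.67 and 1.46 FPKM (-0.18). Of these 5 coding neighbours, MRPL18 alone was past 1.5-fold in either direction as deposited, and this depended on scaling. With equal sums MRPL18 was at -0.41 and ACAT2 at 0.70, and after quantile normalization they were at -0.39 and 0.76, so that ACAT2 alone was past 1.5-fold, on the higher side. With the median of all genes set to 0, MRPL18 was at -0.56 and none of the 5 was past it. Intron-encoded small nucleolar RNAs listed within TCP1 and CCT6A went either way, with SNORA20 at 27.8 and 36.4 FPKM (0.39), SNORA29 at 4.30 and 2.44 (-0.79) and SNORA15 at 7.55 and 8.23 (0.12). FPKM of such short RNAs in poly(A)-selected libraries is uncertain. SOD2-OT1, a noncoding gene in the same listed locus as TCP1, was at 0.904 and 1.29 FPKM (0.47).

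The stretches before the transcription starts are shown to let the letters of the subunit genes be compared. All 8 genes were lower in hypoxia, as were 56.4% of all genes. They come from the RefSeq promoter table (GRCh38.p14), which held 7 of the 8 subunits, with CCT6A missing. The 150 bases before the start of CCT2 (chr12:69585309-69585458, plus strand), CCT3 (chr1:156338293-156338442, minus strand) and CCT8 (chr21:29073649-29073798, minus strand) are printed 5′ to 3′ on the gene's strand, as the most abundant subunit, the least abundant one and the one with the smallest change. Capitals mark matches, on either strand, to the CCAAT box (CCAAT), to the GC box (GGGCGG) or to the ETS core (CCGGAAG), and all other bases are in lower case.
Upstream of CCT2: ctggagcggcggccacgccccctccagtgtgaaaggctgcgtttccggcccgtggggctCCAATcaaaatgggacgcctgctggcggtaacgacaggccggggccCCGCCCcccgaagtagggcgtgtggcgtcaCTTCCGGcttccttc
Upstream of CCT3: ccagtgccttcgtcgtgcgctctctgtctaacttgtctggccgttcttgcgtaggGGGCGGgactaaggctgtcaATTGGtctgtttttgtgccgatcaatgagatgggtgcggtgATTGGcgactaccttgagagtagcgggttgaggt
Upstream of CCT8: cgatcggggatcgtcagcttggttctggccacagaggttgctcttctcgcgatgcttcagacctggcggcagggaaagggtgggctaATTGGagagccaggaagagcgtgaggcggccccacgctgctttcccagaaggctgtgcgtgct

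A CCAAT box was found in 4 of the 7 promoters (TCP1, CCT2, CCT3 and CCT8), in a window from 250 bases before to 50 after the start, while 35.7% of 27305 promoters in the table held one, and 37.9% of the 9671 promoters of genes over the FPKM limit. A GC box was found in 5 of 7, all but CCT4 and CCT5, against 44.6% of all promoters and 69.8% of those of genes over the limit. The ETS core was found in CCT2 alone, against 10.7% of all and 20.3% of those over the limit. The E-box CACGTG, the letters that MYC and MAX bind, and ACGTG, the core of the hypoxia response element, were found in none of the 7, where 7.43% and 21.6% of all promoters held them, and 10.1% and 27.1% of those over the limit. The E-box letters contain those of the hypoxia core. The heat shock element GAANNTTC, the pair of units that heat shock factors bind, was found in TCP1 alone, against 6.87% of all promoters and 4.72% of those over the limit, and is shown with 30 bases of its surroundings (chr6:159789815-159789844, minus strand), the capitals marking the element.
Upstream of TCP1: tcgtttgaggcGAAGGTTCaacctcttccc
CCT8 held both a CCAAT box and a GC box, as did CCT2, CCT3 and TCP1, while CCT7 held a GC box alone and CCT4 and CCT5 held neither. Whether these letters bear on the size of the changes was not tested. A match describes letters in this window only.

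The partners of CCT were set beside the ring. All 6 prefoldin genes were below 0, with log2 changes from -0.62 to -0.29 and a median of -0.52. Of all genes, 56.4% were below 0. Of those averaging 100 FPKM or more 82.1% were, but PFDN5 alone of the prefoldin genes belongs to that class. Only VBP1, from 103 to 66.7 FPKM, was past 1.5-fold lower, 1 of 6 beside 11.2% of all genes. PFDN4 went from 113 to 76.2 FPKM (-0.56), PFDN6 from 83.5 to 57.2 (-0.54), PFDN2 from 38.1 to 27.0 (-0.50) and PFDN1 from 52.3 to 39.6 (-0.40). PFDN5, the most abundant at 371 and 305 FPKM, had the smallest change (-0.29). The difference between prefoldin and the ring was not tested.

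The phosducin-like cofactors and the tubulin cofactors did not move as a block. TXNDC9, a thioredoxin-like inhibitor of CCT, was at 119 and 89.4 FPKM (-0.41), PDCL3 at 25.1 and 23.0 (-0.13) and PDCL at 24.1 and 24.2 (0.01), while PDCL2 was not analysed here. Of the 7 genes that act on tubulin after CCT, none was past 1.5-fold, 4 were below 0 and 3 above, with a median of -0.27. Of all genes, 56.4% were below 0 and 11.2% past 1.5-fold lower. TBCC (-0.53), TBCB (-0.45), ARL2 (-0.35) and TBCA (-0.27, from 402 to 334 FPKM) were below 0. TBCE (0.13), TBCEL (0.30) and TBCD (0.32, from 2.92 to 3.68 FPKM) were above it.

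Among the clients, the cytoplasmic actins were close to the subunits in level and change. ACTB went from 888 to 486 FPKM (-0.87), and ACTG1 at 758 and 415 (-0.87), though these near-identical genes can exchange reads. The third lowest was TUBA1C, from 320 to 201 FPKM (-0.67), and TUBG1, named after its values were seen, also passed 1.5-fold (-0.64). At the other end stood TUBB2B (0.951 and 1.45 FPKM, 0.56), TUBA1A (14.7 and 19.0, 0.37) and TUBG2 (1.20 and 1.44, 0.24). The major beta tubulin TUBB was level, at 504 and 519 FPKM (0.04), while the most abundant tubulin, TUBA1B, went from 960 to 743 (-0.37). Both genes were chosen after their values were seen. Of 16 actin and tubulin genes over the limit, 4 were past 1.5-fold lower and none higher, with a median of -0.22. Of all genes, 11.2% were past it lower and 9.95% higher. Of those averaging 100 FPKM or more, 18.2% were past it lower. That class holds ACTB, ACTG1 and TUBA1C but not TUBG1. It also holds TUBA1B, TUBB, TUBB4B (-0.51) and TUBB6 (0.09), and these were not past 1.5-fold. The summed FPKM of the 16 went from 3808 to 2694, a log2 change of -0.50.

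Of 17 other clients, 2 were past 1.5-fold lower and none higher, with a median of -0.21. Of all genes, 11.2% were past it lower and 9.95% higher, so the count of 2 was near the share of all genes. CDC20, which activates the anaphase-promoting complex, went from 94.6 to 29.7 FPKM (-1.67), and the mitotic kinase PLK1 from 10.7 to 3.87 (-1.45), both larger changes than that of any subunit. GNB2, a G protein beta subunit, was next at 4.10 and 2.84 FPKM (-0.51). The highest were RPTOR (1.13 and 1.54 FPKM, 0.41), PPP2R2A (21.5 and 27.4, 0.35) and GNB5 (7.73 and 9.01, 0.22). VHL, the oxygen-dependent ubiquitin ligase subunit that CCT folds, was at 20.6 and 19.2 FPKM (-0.10), and was picked out after its values were seen.

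Of 6 other chaperonin genes over the limit, none was past 1.5-fold lower and 1 was past it higher, with a median of -0.50. Of all genes, 11.2% were past it lower and 9.95% higher. HSPD1 and HSPE1, the barrel and lid of the mitochondrial chaperonin, went from 759 to 514 FPKM (-0.56) and from 243 to 166 (-0.54). MKKS, one of the chaperonin-like proteins that assemble the BBSome, went from 46.1 to 32.2 FPKM (-0.52), and BBS10 from 10.3 to 9.04 (-0.19). BBS12 was past 1.5-fold higher, but at 1.61 and 2.73 FPKM (0.73). CCT6B, the testis paralog, was listed at 1.10 and 0.759 FPKM (-0.49), and CCT8L2 was not analysed here.

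Sets for other cytosolic machines, mostly of abundant genes, were added after the values were seen and give a further scale. All 14 genes of the 20S proteasome, also a barrel of paralogous subunits, were below 0, with a median of -0.46 and a range from -0.73 to -0.25. Only 2 of them, PSMA5 and PSMB2, were past 1.5-fold lower. Of all genes, 56.4% were below 0 and 11.2% past 1.5-fold lower. Of those averaging 100 FPKM or more, 82.1% and 18.2% were, so the count of 2 was near these shares. Of 11 genes of the cytosolic HSP70 and HSP90 system, all were below 0 with a median of -0.50, and 5 were past 1.5-fold lower, beside the same shares. Among the 5 were DNAJA2 (-0.82) and HSPA4 (-0.79), while HSP90AA1 was at 595 and 549 FPKM (-0.12). The list holds HSF1, a transcription factor at 3.1 and 2.16 FPKM, and its value of -0.50 is the median. HSPA8 was not analysed here. The median of the CCT subunits, -0.79, was below the median of each of these sets, a difference that was not tested.

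**Figure D5:**
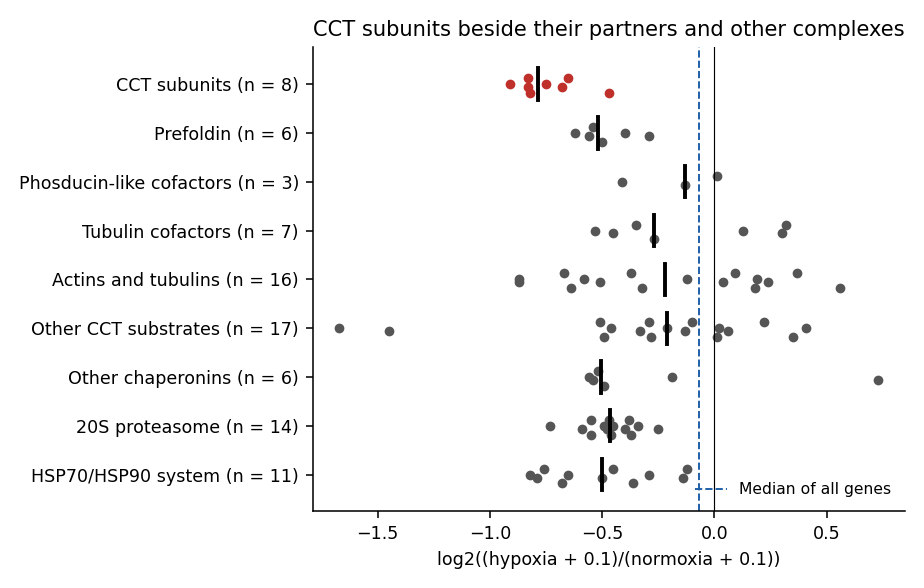
Log2 change in hypoxia (x axis) of each gene averaging 0.5 FPKM or more in the CCT ring (red) and in its partner, client and comparison sets (grey), with a black bar at the median of each set and a dashed line at the median of all genes. The CCT subunits have the lowest median (-0.79), prefoldin, the other chaperonins, the proteasome and the HSP70/HSP90 system lie near -0.5, and the client sets spread on both sides of 0.

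The genes nearest to the mean of the subunits in log2 FPKM of the 2 conditions were RANBP1, TARS1, NDUFV2, MRPL33 and SSBP1. RANBP1, a cofactor of the Ran GTPase, was at 476 and 277 FPKM with a log2 change of -0.78, at a distance of 0.05 log2 units. The next 4, from TARS1 (444 and 309 FPKM, -0.52) to SSBP1 (411 and 281 FPKM, -0.55), were at distances from 0.16 to 0.22. The subunits themselves lay between 0.21 (CCT8) and 1.64 (CCT2) from their mean, and 374 other genes lay nearer than CCT2 did, so likeness over 2 values picks out no small class.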

How the data were processed

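The members, gene lists and the 1.5-fold threshold were chosen with earlier results of these data known. The authors prepared stranded poly(A)-selected libraries, aligned them to RefSeq hg19 with STAR 2.3.0.1 and quantified transcripts with the Cufflinks suite 2.1.1 under standard parameters. The deposited FPKM values are the authors' values, 1 per condition over 4 replicates. The table also holds the authors' fold changes, test statistics, p-values and q-values, which were not used. Sample groups came from the source labels. The treatment text of the labels is the same for all 8 samples.

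RefSeq identifiers were paired with symbols through the RefSeq annotation of GRCh38.p14, which matched 24293 of 24812 entries (97.9%). FPKM was summed per gene. Gene positions are those of the reference transcript in GENCODE 44 lifted to GRCh37. The planned limma fit needs single replicates and was not run. The planned protein comparison was not made. Named genes are the members, every gene of lists of 7 or fewer, the 3 lowest and 3 highest of longer lists, genes overlapping a member or starting within 1 kb of it, pseudogenes, and the 5 genes nearest in level. TUBB, TUBA1B, TUBB4B, TUBB6, VHL, TUBG1 and the genes of the added sets were named after their values were seen. The functions were tested on simulated data. Python 3.11.15, numpy 2.4.6, pandas 2.3.3 and matplotlib 3.10.9 were used. Depth of single samples was not analysed here.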

Additional observations from a re-analysis of the deposited data

How the results depend on the processing

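No paired analysis was possible because each condition has 1 value over its replicates, and for the same reason no replicate could be left out. A value was treated as moved when it differed by more than 1.5 times. The direction of all 8 subunit genes held under every pseudocount, scaling and transcript choice tried. The share of all genes below 0, 56.4% as deposited, was not computed for the other settings. The count of subunit genes past 1.5-fold lower was 6 with the median of all genes set to 0, 4 with equal sums and 1 after quantile normalization. It was 0 at a threshold of 2-fold, where 2.62% of all genes were past it. The median of the subunit genes moved to -0.45 and the change of their summed FPKM to -0.41 after quantile normalization. With equal sums, the median of all genes turned to 0.15, those of the phosducin-like cofactors to 0.10, the actins and tubulins to 0.00 and the other clients to 0.01, while those of prefoldin and of the other chaperonins moved to -0.29 each and that of the tubulin cofactors to -0.04. After quantile normalization the medians were -0.32 for prefoldin, -0.02 for the phosducin-like cofactors, 0.02 for the tubulin cofactors, -0.06 for the actins and tubulins, -0.08 for the other clients and -0.22 for the other chaperonins. The median of the 20S proteasome was -0.24 with equal sums and -0.15 after quantile normalization, and that of the HSP70 and HSP90 system -0.28 and -0.31. With the median of all genes set to 0, that of the phosducin-like cofactors was -0.06. The median of the other clients was -0.13 with 1 FPKM added and -0.11 with the most abundant transcript alone. These shifts come from the settings, which were applied to the same FPKM values. Which setting lies nearest to mRNA per cell was not tested.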
